A study of Mus musculus with 18 samples.

Results

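Brown adipose tissue (BAT) of Csn8AKO mice was compared with BAT of Ctrl mice in the 10 brown-fat RNA-seq libraries of an 18-sample series, 5 per genotype, chosen by their tissue and genotype labels. All mice carried 2 floxed alleles of Csn8, the gene of subunit 8 of the COP9 signalosome (symbol Cops8 in the annotation). Csn8AKO mice also carried Cre under the adiponectin promoter, so deletion was directed to adipocytes and the other cells of the tissue kept the gene. Csn8 f/f littermates without Cre, which the labels call WT, were the controls. All were male, 4 weeks old and briefly fasted, with 1 mouse per library by the study's description, so that p-values measure the spread between mice. The comparison asked which expression programs of young brown fat differ when adipocytes lack CSN8.

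Brown adipocytes burn fatty acids in densely packed mitochondria, where uncoupling protein UCP1 lets protons re-enter the matrix without making ATP. The tissue around them holds capillaries, nerve fibres, fibroblasts with their collagen matrix, and resident macrophages and mast cells. The COP9 signalosome removes the ubiquitin-like protein NEDD8 from cullin-RING ubiquitin ligases and so resets these ligases. RNA-seq of whole tissue adds up all of these cells, so fewer cells of a type and less RNA per cell cannot be told apart.

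Libraries held 26658593 to 66719937 gene-assigned reads, and Csn8AKO libraries 2, 3 and 5 were the shallowest. Levels are counts per 1000000 reads (CPM) after TMM scaling. Differences are log2 fold changes of Csn8AKO against Ctrl ± SE from edgeR's quasi-likelihood test, with n = 5 per group, and a gene is said to have risen or fallen when its Benjamini-Hochberg adjusted p over all 22345 genes tested was under 0.05. By that rule 31.9% of all genes tested (7121) differed, where 16.0% of all genes tested rose (3585) and 15.8% fell (3536). Those with at least a 2-fold change were 1530 higher (6.85%) and 930 lower (4.16%). Of all calls 50.3% were higher, against 66.7% when libraries were scaled by their size alone, which moved the median of all genes from 0.006 to 0.14. The CPM ranges of the genotypes did not overlap for 10.1% of all genes in the higher direction and for 10.9% in the lower. The first principal component held 46.2% of the variance and set all Ctrl libraries (-56.7 to -41.1) apart from all Csn8AKO libraries (25.4 to 74.3).

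Some libraries stood apart from the rest of their group. Csn8AKO library 2 lay at 75.5 on the second principal component (12.6% of the variance), against -25.6 to 8.9 for the others, and 15.1% of its reads fell on ribosomal RNA genes, against 0.863% to 10.1% elsewhere. Csn8AKO libraries 1 and 5 were rich in reads of skeletal muscle genes. The summed CPM of 26 skeletal muscle markers was 343 and 629 in these, 33.4 to 38.7 in the other Csn8AKO libraries and 46.8 to 55.9 in Ctrl. Counts of list members that libraries 1 and 5, left out together, or library 2 moved by at least 3 genes and over 1.5 times are given both ways.

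Cops8 (chromosome 1, 90602981 to 90613341, GRCm38, plus strand) had 36.5, 39.0, 40.1, 37.1 and 44.6 CPM in Ctrl and 28.2, 29.7, 34.5, 31.4 and 36.9 CPM in Csn8AKO. The highest Csn8AKO library passed the lowest Ctrl library, and the fitted difference was -0.30 ± 0.09 (adjusted p = 0.0211, edgeR). Counts cover all exons of the gene, so transcripts that lack the floxed exons are still counted, as is RNA from cells without Cre. Of the 10 signalosome subunits tested, Cops7a also fell (-0.37, adjusted p = 0.000748, edgeR), Gps1 rose (0.21, adjusted p = 0.0321, edgeR) and the other 7 did not pass the test. The call on Cops8 was lost in 3 of the 10 fits that left out 1 library, and that on Gps1 in 5.

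**Figure D1:**
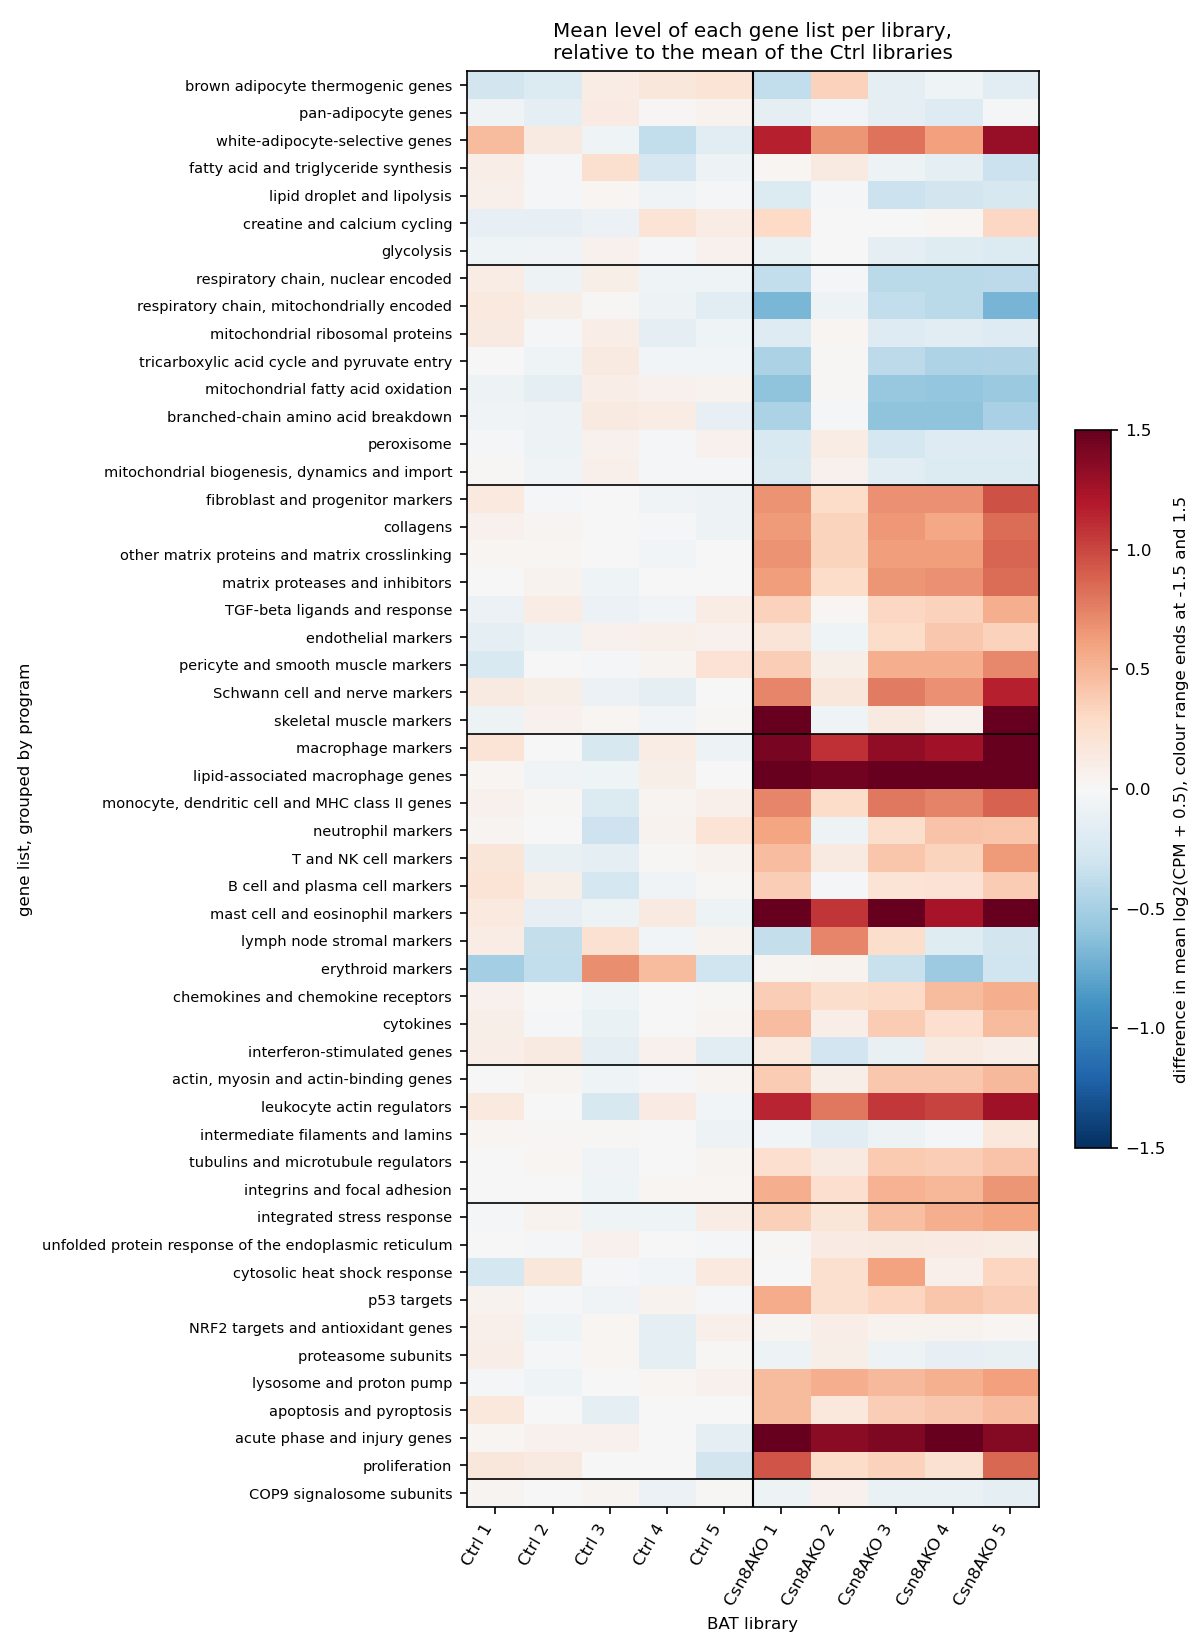
Mean level of each gene list in each BAT library (columns, Ctrl 1 to 5 then Csn8AKO 1 to 5), as the difference in mean log2(CPM + 0.5) from the Ctrl mean, with lists (rows) grouped by program. Mitochondrial lists are blue in Csn8AKO libraries 1, 3, 4 and 5 and near white in library 2, while macrophage, lipid-associated macrophage and acute phase lists are red in all 5.

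Ucp1, Prdm16, Ppargc1a and Cidea, the anchor genes of the thermogenic list below, did not pass the test in either direction. Ucp1, the uncoupling protein itself, had 1568, 1940, 3238, 2716 and 4440 CPM in Ctrl and 2412, 5243, 4645, 3845 and 3942 CPM in Csn8AKO. The ranges overlapped widely, with a fitted difference of 0.53 ± 0.27 (adjusted p = 0.167, edgeR). Prdm16, a transcriptional regulator of brown fat fate, was close to even in all libraries, at 94.0 to 102 CPM in Ctrl and 74.3 to 108 in Csn8AKO (-0.03 ± 0.09). Ppargc1a, the coactivator of mitochondrial biogenesis, differed by 0.91 ± 0.42 (adjusted p = 0.131, edgeR). Cidea, a lipid droplet protein typical of brown fat, had 1440 to 1771 CPM in Ctrl and 875, 1918, 996, 903 and 942 in Csn8AKO. Library 2 lay above all Ctrl libraries and the other 4 Csn8AKO libraries below them, and the fitted difference of -0.53 ± 0.20 had an adjusted p of 0.0558 (edgeR). Over the fits that left out 1 library, the difference in Cidea ran from -0.81 to -0.45. Ucp1, Ppargc1a and Cidea each failed the test in 9 of those 10 fits.

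In the whole thermogenic list more genes fell than rose. Of 40 thermogenic genes, 4 rose (10.0%) and 14 fell (35.0%), against 16.0% and 15.8% of all genes tested. The median was -0.32 against 0.006 over all genes tested. The fall reached Mpzl2, a marker of brown adipocytes (-1.04), Cox7a1, a muscle and brown fat form of a cytochrome c oxidase subunit (-0.79), and Ebf2, a brown lineage transcription factor (-0.58). Without Csn8AKO library 2, 22 members fell and the median was -0.50, and without libraries 1 and 5, 9 fell and the median was -0.24. The summed CPM of the list overlapped between the genotypes, at 16650 to 22030 in Ctrl and 12790 to 23520 in Csn8AKO. The exact permutation test on it gave a two-sided p of 0.294, or 0.367 after adjustment. The members that rose were Elovl3, Bmp8b, Tbx15 and Adrb3. Elovl3, a fatty acid elongase induced by cold, rose from 9.85, 8.77, 37.6, 21.1 and 27.9 CPM in Ctrl to 112, 301, 254, 201 and 200 CPM in Csn8AKO (3.34 ± 0.48, adjusted p = 0.000819, edgeR). Every Csn8AKO library stood above every Ctrl library, and library 2 was the highest. Adrb3, the beta3-adrenergic receptor, rose from 104 to 166 CPM in Ctrl to 224 to 360 CPM (1.09 ± 0.155, adjusted p = 0.000148, edgeR). Beyond the anchor genes and strongest changes of each list, which a rule picked, single list members such as Cox7a1 and Ebf2 were named after their values were seen.

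Most general adipocyte genes did not pass the test. Of 35 pan-adipocyte genes, 2 rose (5.71%), 9 fell (25.7%) and 24 did not pass the test, with a median of -0.09. Of all genes tested, 16.0% rose and 15.8% fell. Adipoq, whose promoter drives the Cre, had 620 to 664 CPM in Ctrl and 617 to 781 in Csn8AKO (0.09 ± 0.09, adjusted p = 0.474, edgeR). Pparg (0.21), Plin1 (0.16) and Fabp4 (0.15), the master regulator, the droplet coat protein and the lipid carrier of fat cells, did not pass the test. Cebpa, which encodes a transcription factor that works with PPARgamma, fell from 541, 447, 425, 398 and 374 CPM to 256, 210, 183, 213 and 265 CPM (-0.95 ± 0.12, adjusted p = 6.59e-05, edgeR). The groups did not overlap for Cebpa, and Csn8AKO library 2 sat among the others. Slc2a4, the insulin-responsive glucose transporter, fell by 0.55, Lipe and Pnpla2, the lipases of triglyceride breakdown, by 0.38 and 0.37 on the log2 scale. The call on Pnpla2 was lost in 7 of 10 fits that left out 1 library.

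Of the list selective for white adipocytes, most genes above the filter on low counts stood higher in Csn8AKO. Of 16 listed, 11 passed this filter, and of those 8 rose and none fell, with a median of 0.96. The other 5, Hoxc9, Hoxc10, Tcf21, Wt1 and Serpina3k, had at most 8 reads in any library of either genotype. With no filter the median was 0.46. Retn, which encodes the adipokine resistin, rose from 19.3, 11.7, 8.94, 5.87 and 11.7 CPM in Ctrl to 115, 87.6, 80.2, 93.9 and 147 CPM in Csn8AKO (3.19 ± 0.31, adjusted p = 5.78e-05, edgeR), with a wide gap between the groups. Agt, which encodes angiotensinogen, rose by 1.88 and Psat1, an enzyme of serine synthesis, by 1.99. Lep, which encodes leptin, did not pass the test (-0.80 ± 0.89) and ran from 2.79 to 68.2 CPM within Ctrl. Without the muscle-rich libraries 6 members rose.

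Of 30 genes of fatty acid and triglyceride synthesis, 6 rose (20%) and 7 fell (23.3%), shares near the 16.0% and 15.8% of all genes tested. Fasn, fatty acid synthase, fell from 56190, 52600, 76540, 40770 and 46230 CPM to 27930, 31790, 24530, 18720 and 16610 CPM (-1.19 ± 0.22, adjusted p = 0.000906, edgeR), a separation without overlap. The last enzymes of triglyceride synthesis moved apart, as Dgat2 fell by 1.13 and Dgat1 rose by 1.02 on the log2 scale. Dgat2 had 2190 to 3534 CPM in Ctrl and 1024 to 1506 in Csn8AKO, and Dgat1 249 to 349 CPM in Ctrl and 405 to 856 in Csn8AKO. Mlxipl, the carbohydrate-responsive factor ChREBP, fell by 0.39, and Srebf1, the sterol and insulin responsive factor, differed by -0.42 ± 0.21 (adjusted p = 0.152, edgeR). The desaturases Fads1 (1.54) and Fads2 (1.17) rose.

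Of 31 genes of the lipid droplet and of lipolysis, 5 rose (16.1%) and 9 fell (29.0%), or 14 without library 2. The shares over all genes tested were 16.0% and 15.8%. G0s2, an inhibitor of the lipase ATGL, fell (-1.14 ± 0.26), while Abhd5, its activator, rose from 75.9 to 139 CPM in Ctrl to 194 to 238 CPM (1.11 ± 0.15, adjusted p = 0.00013, edgeR). Plin2, the droplet coat protein found in many cell types, rose (0.61 ± 0.15). Of 27 glycolysis genes, 5 rose (18.5%) and 8 fell (29.6%), or 4 without libraries 1 and 5. Hk1, a hexokinase common in non-muscle cells, rose from 38.6 to 50.7 CPM to 109 to 189 CPM (1.57 ± 0.14, adjusted p = 5.29e-06, edgeR), and Hk2, the insulin-responsive form, did not pass the test (-0.13 ± 0.16). Of 14 genes of creatine and calcium cycling, 3 rose (21.4%) and 2 fell (14.3%). Ckb, the brain-type creatine kinase, was at 51.4 to 66.1 CPM in Csn8AKO libraries other than library 2, which had 158 CPM (0.05 ± 0.33).

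**Figure D2:**
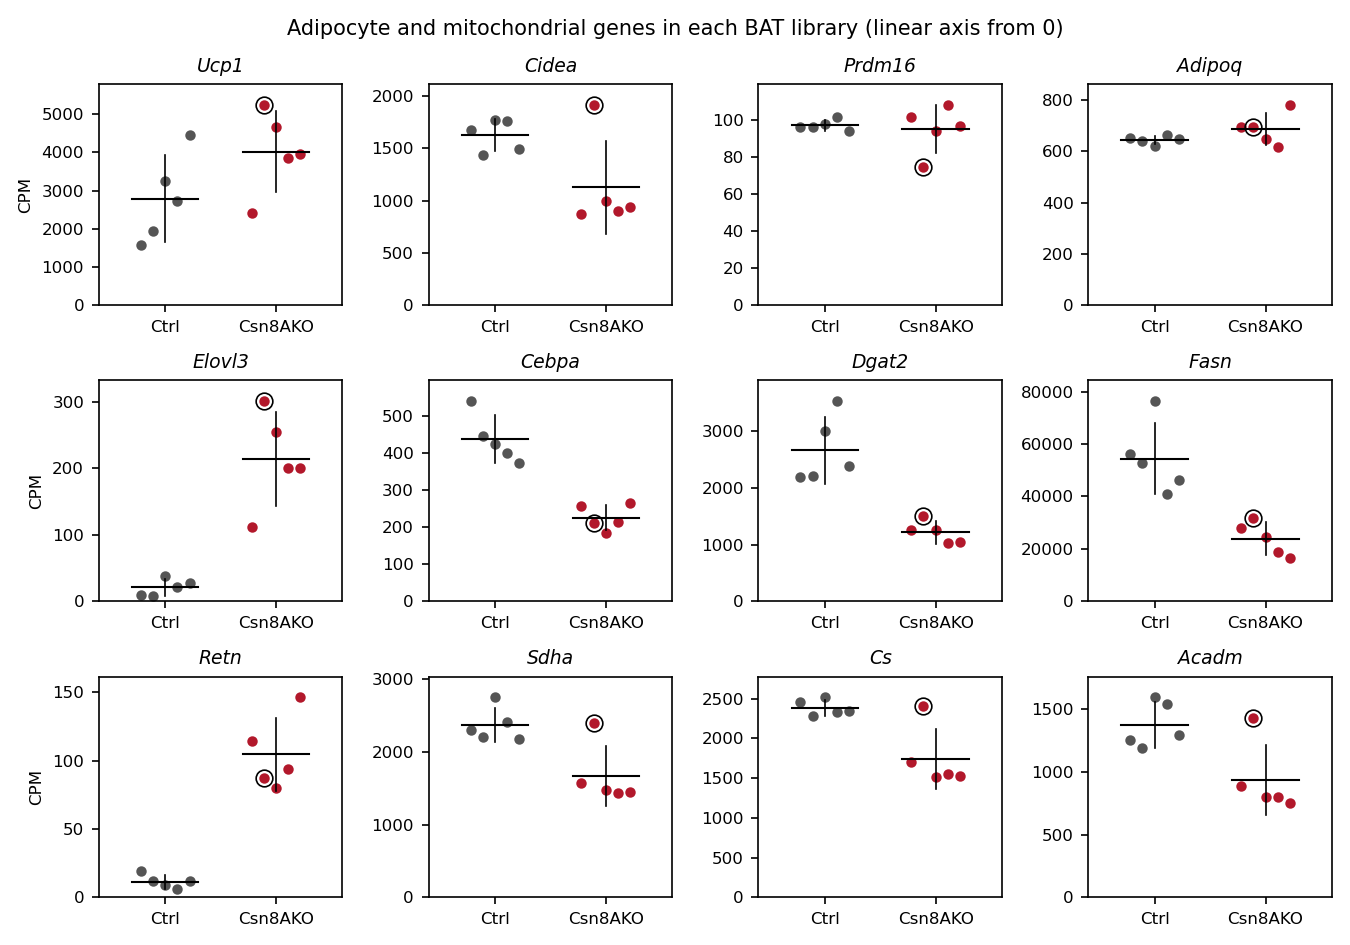
CPM of 12 adipocyte and mitochondrial genes in each library (1 panel per gene, linear axis from 0), with 5 Ctrl points in grey and 5 Csn8AKO points in red, each group in the order of its replicate numbers. Horizontal lines are means and vertical lines ± 1 SD. Csn8AKO library 2, ringed, lies at or above the Ctrl mean for Cidea and among the Ctrl values for Sdha, Cs and Acadm, but with the other Csn8AKO libraries for Cebpa, Dgat2, Fasn and Retn.

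Mitochondrial genes were lower in small, broad steps. Of 82 nuclear genes of the respiratory chain tested, 49 fell and 2 rose, with a median of -0.34. Of the 13 protein genes of the mitochondrial genome, 9 fell and none rose, with a median of -0.45, and no member of either list fell by 1 or more. Of the enzymes of branched-chain amino acid breakdown, 20 of 29 fell and 2 rose, with a median of -0.48. Of the genes of mitochondrial fatty acid oxidation, 16 of 29 fell and none rose (median -0.43), and of those of the tricarboxylic acid cycle with pyruvate entry, 16 of 31 fell and 3 rose (median -0.40). Of the mitochondrial ribosomal proteins, 24 of 77 fell and 2 rose (median -0.17), and of the genes of biogenesis, dynamics and import, 14 of 45 fell and 4 rose (median -0.06). All of these shares of lower genes stood above the 15.8% of all genes tested. The lists share members, such as the subunits of succinate dehydrogenase.

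By TMM-scaled level, Csn8AKO library 2 stood close to Ctrl for these lists. Relative to the Ctrl mean, the mean log2 level of the nuclear respiratory chain list was -0.37, -0.41, -0.41 and -0.39 in Csn8AKO libraries 1, 3, 4 and 5 and -0.03 in library 2. Fatty acid oxidation stood at -0.60, -0.57, -0.58 and -0.56 in those 4 libraries and at 0.02 in library 2. The mitochondrially encoded list stood at -0.69, -0.37, -0.40 and -0.70 in those 4 libraries and at -0.08 in library 2. Without library 2, 67 of 82 nuclear respiratory chain genes, 24 of 29 fatty acid oxidation genes and 25 of 29 branched-chain genes fell, with medians of -0.42, -0.63 and -0.63. Without libraries 1 and 5 in its place, the counts were 24, 9 and 10. For the tricarboxylic acid cycle list, 26 fell without library 2 and 6 without libraries 1 and 5, and leaving out any 1 library gave 10 to 26. For the mitochondrially encoded genes, 12 fell without library 2 and 3 without libraries 1 and 5 (median -0.31), and leaving out any 1 library gave 5 to 12. Without libraries 1 and 5, 14 mitochondrial ribosomal protein genes and 7 genes of biogenesis, dynamics and import fell, and the median of the last list was 0.01. Sdha, a subunit of complex II, had 2171 to 2757 CPM in Ctrl and 1567, 2393, 1471, 1433 and 1443 CPM in Csn8AKO (-0.51 ± 0.15, adjusted p = 0.0183, edgeR). Cs, citrate synthase, had 2280 to 2525 CPM in Ctrl and 1697, 2401, 1510, 1557 and 1530 CPM in Csn8AKO (-0.46 ± 0.13, adjusted p = 0.0188, edgeR). For both genes 4 Csn8AKO libraries lay below every Ctrl library and 1 lay inside the Ctrl range. Each call was lost in 3 of 10 fits that left out 1 library. Leaving ribosomal RNA genes out of the scaling gave the same call for all 230 genes named by the rule.

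Several mitochondrial genes separated the genotypes in all libraries. Aldh6a1, an enzyme of valine breakdown, fell from 418, 414, 444, 496 and 434 CPM to 215, 263, 207, 212 and 214 CPM (-0.99 ± 0.09, adjusted p = 4.96e-06, edgeR). Acad12, an acyl-CoA dehydrogenase family member, fell from 73.1 to 82.5 CPM to 20.6 to 33.4 CPM (-1.62 ± 0.12, adjusted p = 6.04e-07, edgeR). Suclg2, a subunit of succinyl-CoA ligase, fell by 0.79 and Atp5e, a subunit of ATP synthase, by 0.77 on the log2 scale. For each of these 4 genes library 2 was the highest of the Csn8AKO group and still below all Ctrl libraries. Pink1, a kinase that marks damaged mitochondria, fell by 0.66 on the log2 scale. Tfam, the mitochondrial DNA packaging factor, fell by 0.33, with library 2 inside the Ctrl range and a call lost in 3 of 10 fits that left out 1 library.

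The nuclear respiratory chain genes that rose were Cox4i2, an isoform of cytochrome c oxidase subunit IV (0.44 ± 0.16, adjusted p = 0.0442, edgeR, with library 2 inside the Ctrl range), and Atp5g1, 1 of 3 genes for the c subunit of ATP synthase. Atp5g1 had 6.75, 6.05, 5.02, 3.60 and 5.66 CPM in Ctrl and 32.4, 7.25, 27.3, 25.8 and 28.4 CPM in Csn8AKO (2.17 ± 0.35, adjusted p = 0.00104, edgeR). Library 2 was close to Ctrl and the other 4 far above it. The 3 genes encode the same mature protein and processed copies of them exist, so reads could be split between them, and Atp5g2 fell by 0.37.

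Peroxisomal genes were lower in part. Of 49, 20 fell (40.8%) and 8 rose (16.3%), against 15.8% and 16.0% of all genes tested, with a median of -0.22. Amacr, a racemase of branched-chain fatty acids, fell from 30.9 to 36.7 CPM to 12.1 to 19.4 CPM (-1.21 ± 0.12, adjusted p = 8.45e-06, edgeR). Abcd2, a transporter of very-long-chain acyl-CoA, rose from 22.1 to 34.6 CPM to 76.3 to 142 CPM (1.91 ± 0.17, adjusted p = 5.14e-06, edgeR). The share of all gene-assigned reads on mitochondrially encoded protein genes was 8.96%, 9.38%, 8.66%, 9.07% and 8.91% in Ctrl and 7.33%, 7.32%, 8.19%, 8.61% and 6.94% in Csn8AKO. The groups did not overlap (exact permutation test, two-sided p = 0.00794, the smallest that 5 against 5 allows, 0.0317 after adjustment over 20 library measures). These shares count ribosomal RNA reads in the total. Of reads outside ribosomal RNA genes the shares were 9.96%, 9.74%, 8.73%, 9.25% and 9.00% in Ctrl and 7.51%, 8.62%, 8.54%, 8.70% and 7.03% in Csn8AKO, again without overlap, and libraries 2, 3 and 4 lay just under the lowest Ctrl library.

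**Figure D3:**
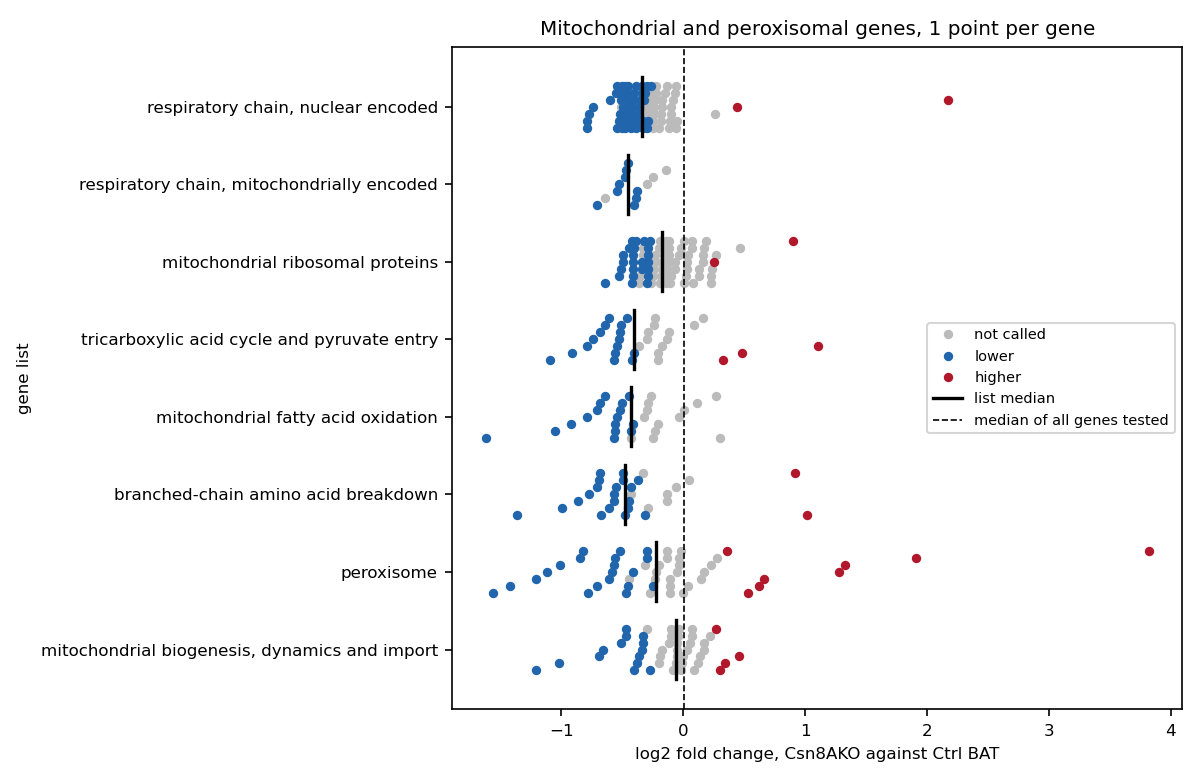
Log2 fold change (horizontal axis) of each tested gene of 8 mitochondrial and peroxisomal lists (rows), with genes that fell in blue, genes that rose in red and genes that did not pass the test in grey. Black bars are list medians and the dashed line is the median of all genes tested (0.006), and the bars of all 8 lists lie to its left.

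Most stromal lists had more genes that rose than fell. Of 27 fibroblast and progenitor markers tested, 21 rose and 1 fell, with a median of 0.81. Their summed CPM was 622, 565, 583, 600 and 567 in Ctrl and 976, 680, 971, 966 and 1157 in Csn8AKO (exact permutation test, two-sided p = 0.00794, adjusted 0.0317). Library 2 was again the closest to Ctrl. Pdgfra, the receptor that marks adipose fibroblasts and progenitors, rose from 23.5 to 34.7 CPM to 71.0, 38.5, 67.7, 70.7 and 100 CPM (1.33 ± 0.21, adjusted p = 0.000588, edgeR). Dpt, which encodes the matrix protein dermatopontin, rose (1.37 ± 0.14). Dlk1, the preadipocyte factor Pref-1, was the 1 marker that fell (-0.86 ± 0.26).

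Of 39 collagen genes, 20 rose (51.3%, against 16.0% of all genes tested) and 1 fell, with a median of 0.95. For 18 of the 39 the groups did not overlap, all Csn8AKO libraries lying higher, against 10.1% of all genes tested. Col1a1, the main fibrillar collagen, rose from 632, 551, 477, 393 and 364 CPM to 1184, 906, 1298, 1144 and 1858 CPM (1.40 ± 0.19, adjusted p = 0.000131, edgeR). The basement membrane collagen Col4a1 rose (0.95 ± 0.11), and Col5a3, a fibril-regulating collagen, rose from 83.9 to 122 CPM to 239 to 374 CPM (1.81 ± 0.14, adjusted p = 9.13e-07, edgeR). For Col5a3, library 2 (360 CPM) was as high as the rest. Of 41 other matrix and crosslinking genes, 28 rose and 2 fell, with a median of 0.75. Fn1, fibronectin, rose from 60.5 to 65.7 CPM to 226, 174, 219, 215 and 280 CPM (1.81 ± 0.11, adjusted p = 1.21e-07, edgeR), while Lox, the first described lysyl oxidase, did not pass the test (0.10 ± 0.21) and its relatives Loxl1 (1.67) and Loxl2 (1.01) rose. Prelp, a proteoglycan of basement membranes, fell by 1.02.

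Of 37 matrix proteases and inhibitors, 20 rose and 2 fell. Mmp12, the macrophage elastase, had 0.155, 0.203, 0.0968, 0.258 and 0.0901 CPM in Ctrl and 10.2, 6.43, 8.35, 12.9 and 9.22 CPM in Csn8AKO (5.86 ± 0.28, adjusted p = 1.54e-08, edgeR). It passed the filter on low counts through its Csn8AKO counts. Timp1, a secreted inhibitor of these proteases, rose to 0.550 to 1.30 CPM (2.18 ± 0.35). Of 28 TGF-beta genes, 10 rose (35.7%) and 3 fell (10.7%, below the share of all genes tested). Tgfb1 rose (0.73 ± 0.13) and Tgfbi, a secreted target, rose (0.80 ± 0.09), whereas Lrrc15, a marker of TGF-beta-driven fibroblasts, fell (-1.04 ± 0.14).

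Endothelial genes changed least among the stromal lists. Of 28 endothelial markers, 8 rose (5 without libraries 1 and 5) and none fell, with a median of 0.14, and their summed CPM (1821 to 2488 in Ctrl, 2128 to 2708 in Csn8AKO) overlapped (exact permutation test, two-sided p = 0.206, adjusted 0.295). Cdh5, VE-cadherin, did not pass the test (0.10 ± 0.11), nor did Gpihbp1, which carries lipoprotein lipase to the capillary wall (-0.01 ± 0.11). Plvap, of fenestrated endothelium, rose by 1.01. Of 18 pericyte and smooth muscle markers, 11 rose (61.1%, 6 genes without libraries 1 and 5) and 1 fell (5.56%). Acta2, smooth muscle actin, had 17.0 to 51.4 CPM in Ctrl and 41.6 to 119 CPM in Csn8AKO (1.39 ± 0.37, adjusted p = 0.020, edgeR), while the pericyte marker Rgs5 did not pass the test (-0.12 ± 0.09) and Cspg4, the NG2 proteoglycan, fell (-0.94 ± 0.13). Of 15 Schwann cell and nerve markers tested, 11 rose and none fell. The summed CPM of the list was 133.1 to 161.5 in Ctrl and 143.0 to 240.2 in Csn8AKO, with library 2 inside the Ctrl range. The exact permutation test on it gave a two-sided p of 0.0238, or 0.068 after adjustment. Sox10, the Schwann cell transcription factor, rose from 1.59 to 3.57 CPM to 5.55, 4.38, 7.97, 9.81 and 11.3 CPM (1.62 ± 0.27, adjusted p = 0.000479, edgeR). Th, Dbh and Npy, genes of sympathetic neurons, were below the filter on low counts. Without libraries 1 and 5, 6 of the 15 rose and 1 fell.

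Of 14 skeletal muscle markers tested, 7 rose and 2 fell (13 and 2 of 17 without library 2), and most of the increase lay in 2 libraries. Acta1, skeletal actin, had 0.226 to 0.523 CPM in Ctrl and 27.1, 0.434, 0.515, 0.848 and 52.6 CPM in Csn8AKO (5.48 ± 1.59, adjusted p = 0.0306, edgeR). Without libraries 1 and 5 the difference was 0.78 (adjusted p = 0.17, edgeR) and 4 of 15 markers rose and 3 fell, with a median of 0.41. Ryr1, the muscle calcium release channel, and Tnnt3, a fast troponin, were also highest in these libraries, but stood above Ctrl in the other 3 as well, with differences of 1.83 and 1.65 without libraries 1 and 5 (adjusted p = 0.00479 and 0.0417, edgeR). Myl1, a myosin light chain, fell (-1.49 ± 0.19).

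Macrophage genes rose strongly. Of 25 macrophage markers tested, 20 rose and none fell, with a median of 1.49, and the summed CPM of the list was 234.5, 211, 181, 246 and 194 in Ctrl and 718, 594, 742, 671 and 847 in Csn8AKO (exact permutation test, two-sided p = 0.00794, adjusted 0.0317). Cd68, a lysosomal protein of macrophages, rose from 6.18, 5.66, 5.21, 6.96 and 5.93 CPM to 38, 28.8, 30.2, 35.3 and 39.8 CPM (2.52 ± 0.12, adjusted p = 1.12e-08, edgeR). Adgre1, which encodes the F4/80 antigen, rose by 1.63 and Csf1r, the receptor for macrophage colony stimulating factor, by 1.07. The 5 markers that did not pass the test included Cd163 (0.22), Timd4 (0.41), Cx3cr1 (0.02) and Folr2 (0.71). These do not stand for all markers of resident or scavenging subsets on the list, most of whose members rose.

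Lipid-associated macrophages are cells that gather around dying or lipid-laden adipocytes. Of 21 of their genes tested, 17 rose and none fell, with a median of 1.58. Atp6v0d2, a proton pump subunit of macrophages and osteoclasts (chromosome 4, 19876841 to 19922605, minus strand), had 0.103, 0.169, 0.0968, 0.129 and 0.144 CPM in Ctrl and 8.03, 7.10, 7.36, 8.30 and 10.7 CPM in Csn8AKO (5.97 ± 0.21, adjusted p = 1.41e-09, edgeR). Gpnmb, a transmembrane glycoprotein of lipid-loaded macrophages, rose from 1.5, 1.76, 1.5, 3.95 and 0.883 CPM to 48.9, 33.0, 48.9, 54.1 and 79.8 CPM (4.78 ± 0.42, adjusted p = 3.47e-05, edgeR). Trem2, the lipid-sensing receptor of these cells, rose from 0.108 to 0.517 CPM to 4.02 to 5.79 CPM (4.45 ± 0.32, adjusted p = 5.51e-07, edgeR). For all 3 genes the lowest Csn8AKO library stood far above the highest Ctrl library, with library 2 among them. Atp6v0d2 and Trem2 passed the filter on low counts through their Csn8AKO counts. Lgals3, galectin-3, rose by 4.43 and Spp1, osteopontin, by 2.97, the last at under 1 CPM in every library. Lipa, lysosomal acid lipase (-0.20), and Acp5 (-0.02) did not pass the test.

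Of 25 monocyte, dendritic cell and MHC class II genes, 15 rose and none fell, with a median of 0.91. Ccr2, the monocyte chemokine receptor, rose from 1.84 to 3.15 CPM to 6.31 to 9.76 CPM (1.66 ± 0.17, adjusted p = 8.6e-06, edgeR), and H2-Ab1, an MHC class II chain, by 1.62. Of 20 mast cell and eosinophil markers listed, 9 passed the filter on low counts and 7 of these rose (11 without library 2, where more passed the filter), among them the proteases Cma1 (2.82), Cpa3 (2.57) and Mcpt4 (3.05), but their summed CPM, to which Kit (not called, 15.8 to 56.4 CPM in Ctrl) adds, was 44.1 to 82.8 in Ctrl and 58.3 to 112 in Csn8AKO (exact permutation test, two-sided p = 0.0714, adjusted 0.143).

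Lymphoid and granulocyte genes differed less. Of 28 T and NK cell markers, 10 rose (35.7%) and 1 fell (3.57%), and without libraries 1 and 5 only 3 rose. Cd3e rose (1.00 ± 0.27) at 0.512 to 0.911 CPM in Csn8AKO, while Cd8a (0.03) and Foxp3 (0.06) did not pass the test. Of 15 B cell markers, 2 rose (13.3%) and 1 fell (6.67%), below the 16.0% and 15.8% of all genes tested. Neutrophil markers were scarce, with 7 of 23 above the filter. Of these, Csf3r (1.14), Prtn3 (1.81) and Clec4d (4.29) rose, and S100a9, at 0.155 to 0.406 CPM in Ctrl and 0.267 to 0.709 CPM in Csn8AKO, did not pass the test (0.81 ± 0.36). Clec4d had at most 0.155 CPM in Ctrl, so it passed the filter through its Csn8AKO counts. The list median was 0.81, but -0.12 with a filter of 1 CPM, so these few markers show no clear direction. None of 7 erythroid markers passed the test. Of the lymph node stromal markers only Glycam1 was above the filter, at under 2 CPM in every library.

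Of 38 chemokines and their receptors tested, 17 rose and 4 fell. Ccl6, a macrophage chemokine, rose by 2.42, Cxcl1, a neutrophil attractant, by 2.95 and Ccl2, a monocyte attractant, by 1.39. Cxcl10, an interferon-induced chemokine, fell from 4.87 to 6.83 CPM to 2.25 to 3.64 CPM (-1.04 ± 0.16, adjusted p = 0.000297, edgeR). The inflammatory cytokines Il1b and Tnf did not pass the test. Il1b had 0.0968 to 0.595 CPM in Ctrl and 0.158 to 0.825 CPM in Csn8AKO (0.30 ± 0.51), and Tnf 0.210 to 0.621 CPM in Ctrl and 0.276 to 0.698 CPM in Csn8AKO (0.19 ± 0.36). Of 18 cytokines, 7 rose (4 without libraries 1 and 5), including Il18 (1.95), Il33 (1.14), Csf1 (0.46) and Lif (3.41). Of 42 interferon-stimulated genes, 7 rose (16.7%) and 5 fell (11.9%), with a median of -0.07. These shares were near or below the 16.0% and 15.8% of all genes tested.

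Cytoskeletal genes stood higher as well. Of 63 actin, myosin and actin-binding genes, 39 rose and 4 fell, with a median of 0.31. Actg1, cytoplasmic gamma-actin, rose from 95.1, 94.9, 79.0, 95.8 and 79.0 CPM to 273, 189, 348, 346 and 330 CPM (1.74 ± 0.15, adjusted p = 3.21e-06, edgeR). Actb, beta-actin, rose less, from 880 to 1019 CPM to 1158 to 1719 CPM (0.68 ± 0.12, adjusted p = 0.000565, edgeR). In both genes library 2 was the lowest of the Csn8AKO group and above all Ctrl libraries. Of 24 actin regulators of leukocytes, 22 rose, with a median of 1.12, among them Lcp1, the leukocyte plastin (1.71). This list moved with the macrophage markers, whose summed CPM is given above, and how much of the rise in the general actin list came with them was not tested. Without libraries 1 and 5, 27 of 63 actin genes and 22 of 24 leukocyte actin regulators rose.

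Against this direction, Myh14, a non-muscle myosin heavy chain (IIC), fell from 32.1, 23.4, 27.4, 31.3 and 25.6 CPM to 5.92, 3.86, 4.67, 4.35 and 3.61 CPM (-2.63 ± 0.14, adjusted p = 5.48e-08, edgeR), its paralog Myh9 (IIA) rose (0.36 ± 0.11) and Myh10 (IIB) fell by 0.435 on the log2 scale. Of 30 tubulin and microtubule genes, 14 rose (46.7%) and 4 fell (13.3%, below the share of all genes tested). Tubb2a (1.64) and Map1b, a microtubule-associated protein (1.27), rose, and the gamma-tubulins Tubg1 (-0.61) and Tubg2 (-1.05) fell. Of 11 intermediate filament and lamin genes, 2 rose and 2 fell (18.2% each, near the 16.0% and 15.8% of all genes tested). Vim, vimentin, did not pass the test (0.28 ± 0.18). Of 45 integrin and focal adhesion genes, 20 rose (44.4%) and 3 fell (6.67%). But the summed CPM of the list was lower in every Csn8AKO library (2928 to 3213) than in every Ctrl library (3289 to 4722). Leukocyte integrins such as Itgb2 (2.27) and Itgax (2.37) were among those that rose, Itgb1, the most widely used beta chain, did not pass the test (0.14 ± 0.08), and Tns1, tensin 1, which held the most reads of the list, fell from 1778 to 3018 CPM to 1269 to 1594 CPM (-0.77 ± 0.14).

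The 250 bases before the start of Actg1 (chromosome 11, 120348496 to 120348745, minus strand) and Vcl, vinculin (chromosome 14, 20929148 to 20929397, plus strand), are shown because each holds a CArG box, the site named for serum response factor, in capitals. Sequences are from RefSeq on GRCm38.p6, 5′ to 3′ on the strand of the gene.
Actg1: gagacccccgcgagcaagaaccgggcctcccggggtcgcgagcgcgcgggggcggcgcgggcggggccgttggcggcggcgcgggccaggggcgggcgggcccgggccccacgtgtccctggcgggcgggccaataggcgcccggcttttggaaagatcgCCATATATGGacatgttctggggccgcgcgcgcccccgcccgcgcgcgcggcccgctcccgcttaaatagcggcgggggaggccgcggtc
Vcl: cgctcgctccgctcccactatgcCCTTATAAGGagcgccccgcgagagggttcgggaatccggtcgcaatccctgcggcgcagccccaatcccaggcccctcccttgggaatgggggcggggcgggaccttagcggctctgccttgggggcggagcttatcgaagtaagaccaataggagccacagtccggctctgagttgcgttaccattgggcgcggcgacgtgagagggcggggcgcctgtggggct
On either strand, 6 of 56 actin-list genes with a listed promoter held such a box (10.7%), against 1.45% of all 12519 tested genes with one. The list was chosen with earlier results of these data known, so this excess was not a test. Of the 6, 5 rose (Actg1, Myl6, Myl9, Vcl and Cnn2) and Arpc4 did not pass the test. In the whole list 39 of 63 genes rose (61.9%), and whether the box goes with a rise was not tested. A match in letters is a description and not a bound site.

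**Figure D4:**
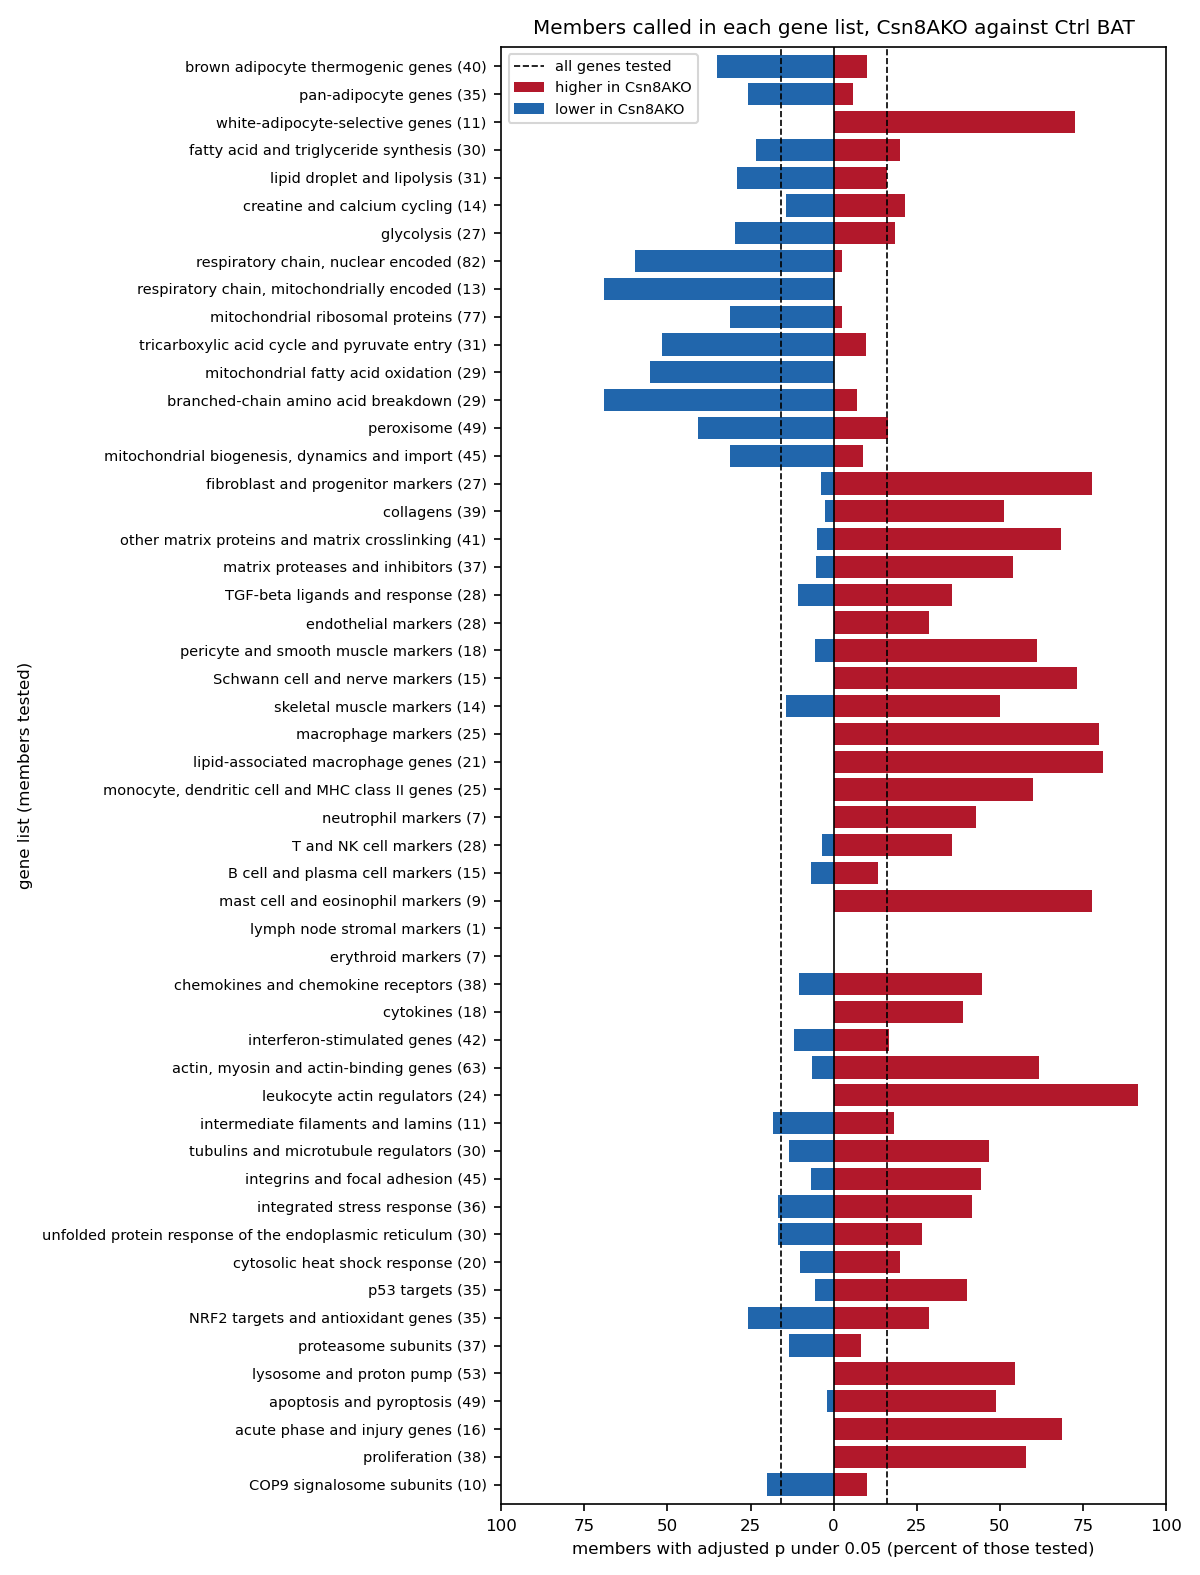
Share of the tested members of each gene list that rose (red, to the right) or fell (blue, to the left), with the number tested in brackets and dashed lines at the shares over all genes tested, 16.0% higher and 15.8% lower. The longer bars of the mitochondrial lists point left and those of most stromal, immune and cytoskeletal lists point right, while erythroid and lymph node stromal markers have none and B cell markers and interferon-stimulated genes lie near or below the dashed lines.

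Stress programs differed from one another. Gdf15, a stress hormone (chromosome 8, 70629393 to 70632456, minus strand), had 0.259, 0.339, 0.129, 0.148 and 0.108 CPM in Ctrl and 4.45, 2.21, 12.2, 22.4 and 8.59 CPM in Csn8AKO (5.67 ± 0.71, adjusted p = 0.000275, edgeR). All Csn8AKO libraries stood above all Ctrl libraries, from 2.21 CPM in library 2 to 22.4 CPM in library 4. Gdf15 passed the filter on low counts through its Csn8AKO counts. Of 36 genes of the integrated stress response, the program that ATF4 drives when eIF2alpha is phosphorylated, 15 rose and 6 fell, with a median of 0.31. The shares were 41.7% and 16.7%, against 16.0% and 15.8% of all genes tested. Atf4 had 55.3 to 83.8 CPM in Ctrl and 72.2, 85.1, 144, 134 and 144 CPM in Csn8AKO (0.69 ± 0.20, adjusted p = 0.0214, edgeR), a call lost in 3 of 10 fits that left out 1 library. Atf3, a stress-induced factor, rose from 1.14, 4.01, 1.02, 2.12 and 5.05 CPM to 10.6, 3.71, 19.2, 8.78 and 50.7 CPM (2.79 ± 0.79, adjusted p = 0.0265, edgeR), with library 2 inside the Ctrl range. Ddit3, which encodes CHOP, did not pass the test (-0.16 ± 0.12).

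Other members of the list went both ways, though the share that fell was near that of all genes tested. Among those that rose were the cystine transporter Slc7a11 (2.25), its partner Slc3a2 (1.37), the neutral transporter Slc7a5 (2.15) and the cysteinyl tRNA synthetase Cars (0.88 ± 0.08). Asns, asparagine synthetase, fell from 55.4, 49.8, 63.2, 48.5 and 64.9 CPM to 34.5, 28.2, 30.2, 27.6 and 33.7 CPM (-0.87 ± 0.10, adjusted p = 2.68e-05, edgeR), and the groups did not overlap. Nupr1, a stress-induced nuclear protein, fell by 0.58 and Vldlr, a lipoprotein receptor, by 1.40 on the log2 scale.

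The letters TGATGNAA, the C/EBP-ATF response element that ATF4 binds, were searched on both strands in the 250 bases before the start, and 10 of 29 integrated stress response genes with a listed promoter held them (34.5%), against 2.55% of all 12519 tested genes with one. Since the list is of the program that ATF4 drives, its excess over all genes was not a test. Of the 10, 3 rose, 4 fell and 3 did not pass the test. The 3 that rose and 3 of those that fell are shown, with the element in capitals on whichever strand it lies, from RefSeq on GRCm38.p6. Vldlr has 2 listed starts, and the first of them that held the element was taken. Atf3 lies on chromosome 1 (191183334 to 191183583, minus strand), Slc7a11 on chromosome 3 (50443614 to 50443863, minus), Chac1 on chromosome 2 (119350992 to 119351241, plus), Asns on chromosome 6 (7693210 to 7693459, minus), Nupr1 on chromosome 7 (126625471 to 126625720, minus) and Vldlr on chromosome 19 (27216770 to 27217019, plus).
Atf3 (rose): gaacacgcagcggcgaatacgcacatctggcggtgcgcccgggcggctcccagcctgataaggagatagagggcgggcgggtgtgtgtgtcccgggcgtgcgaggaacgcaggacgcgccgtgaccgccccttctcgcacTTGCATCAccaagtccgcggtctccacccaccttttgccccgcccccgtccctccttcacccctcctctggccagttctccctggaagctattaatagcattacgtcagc
Slc7a11 (rose): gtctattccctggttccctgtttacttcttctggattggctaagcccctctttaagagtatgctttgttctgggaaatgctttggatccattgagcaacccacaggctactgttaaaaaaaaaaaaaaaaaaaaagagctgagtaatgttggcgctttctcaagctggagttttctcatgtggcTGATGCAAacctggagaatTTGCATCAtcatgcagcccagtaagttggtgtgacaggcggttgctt
Chac1 (rose): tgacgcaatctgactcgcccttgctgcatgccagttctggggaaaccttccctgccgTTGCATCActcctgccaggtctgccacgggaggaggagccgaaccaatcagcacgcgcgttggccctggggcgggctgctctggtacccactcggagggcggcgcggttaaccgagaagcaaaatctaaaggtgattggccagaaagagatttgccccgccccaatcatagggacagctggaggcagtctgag
Asns (fell): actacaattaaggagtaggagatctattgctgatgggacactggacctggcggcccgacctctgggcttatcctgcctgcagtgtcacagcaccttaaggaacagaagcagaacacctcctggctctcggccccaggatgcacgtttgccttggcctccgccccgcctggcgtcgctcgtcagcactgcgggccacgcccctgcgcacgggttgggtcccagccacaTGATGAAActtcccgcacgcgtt
Nupr1 (fell): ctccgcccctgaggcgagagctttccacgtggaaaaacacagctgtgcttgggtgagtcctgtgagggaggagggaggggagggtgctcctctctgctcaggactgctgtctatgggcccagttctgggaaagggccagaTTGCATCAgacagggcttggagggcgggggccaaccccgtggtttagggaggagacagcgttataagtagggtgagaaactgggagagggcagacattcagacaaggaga
Vldlr (fell): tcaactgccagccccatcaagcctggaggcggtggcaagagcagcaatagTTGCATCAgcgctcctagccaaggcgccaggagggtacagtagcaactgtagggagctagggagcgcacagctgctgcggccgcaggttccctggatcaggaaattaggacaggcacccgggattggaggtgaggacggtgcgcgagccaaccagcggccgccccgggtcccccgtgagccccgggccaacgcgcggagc
The element stood on its own in each promoter but that of Slc7a11, which holds 2 matches. Its presence did not go with 1 direction, since genes with it were found among those that rose and those that fell.

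Of 30 genes of the unfolded protein response of the endoplasmic reticulum, 8 rose (26.7%) and 5 fell (16.7%), with a median of 0.18. Without library 2, 8 fell. Of all genes tested, 16.0% rose and 15.8% fell. Hspa5, the chaperone BiP, did not pass the test (0.24 ± 0.10, adjusted p = 0.0964, edgeR), and Hyou1, another chaperone, fell (-0.53 ± 0.07). The ER stress response element, CCAAT and CCACG with 9 bases between them on either strand, was found before the start of 9 of 24 of these genes with a listed promoter (37.5%), against 0.168% of all tested genes with one. These genes were listed for this response, so the excess was not a test. Of the 9, 1 rose, 1 fell and 7 did not pass the test. Of 20 heat shock genes 4 rose and 2 fell, and of 37 proteasome subunits 3 rose and 5 fell, with medians of 0.34 and -0.07. The shares of both lists were near or below the 16.0% and 15.8% of all genes tested. Without library 2, 11 proteasome subunits fell, and without libraries 1 and 5, 2 fell. The inducible chaperone Hspa1b had 1.74 to 11.4 CPM in Ctrl and 2.64 to 17.2 CPM in Csn8AKO (0.75 ± 0.67).

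Of 35 targets of p53, 14 rose and 2 fell, with a median of 0.48. Cdkn1a, the cell cycle inhibitor p21, rose from 37.7, 59.9, 93.0, 91.1 and 72.4 CPM to 183, 306, 242, 239 and 154 CPM (1.67 ± 0.26, adjusted p = 0.000726, edgeR), without overlap and with library 2 the highest. Mdm2, the ligase that degrades p53, rose (0.54 ± 0.08), as did the death effector Bax (1.01 ± 0.11) and the RNA-binding protein Zmat3 (0.96 ± 0.09). Rrm2b, a ribonucleotide reductase subunit, fell (-0.89 ± 0.11), and the death effectors Bbc3 (-0.22) and Pmaip1 (1.24) did not pass the test.

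Of 35 NRF2 targets and antioxidant genes, 10 rose (28.6%) and 9 fell (25.7%), against 16.0% and 15.8% of all genes tested, with a median of 0.01. Hmox1, heme oxygenase 1, which macrophages also make, rose from 9.13 to 14.2 CPM to 28.8 to 69.8 CPM (2.16 ± 0.25, adjusted p = 9.81e-05, edgeR). Nqo1 (adjusted p = 0.997, edgeR) and Gclm (0.08 ± 0.12), standard NRF2 targets, did not pass the test, and Gstm1, a glutathione transferase, fell (-0.96 ± 0.08). The antioxidant response element core TGACNNNGC was found before the start of 8 of 29 members with a listed promoter (27.6%), against 13.9% of all tested genes with one. The list names NRF2 targets, so this excess was not a test either. Of the 8, 3 rose and none fell.

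Of 53 lysosomal and proton pump genes, 29 rose and none fell, with a median of 0.33. Ctsd, cathepsin D, rose from 467 to 588 CPM to 732 to 856 CPM (0.60 ± 0.09, adjusted p = 0.000261, edgeR), and library 2 was the highest. Lamp1, a lysosomal membrane protein, did not pass the test (0.10 ± 0.10). Of 49 apoptosis and pyroptosis genes, 24 rose and 1 fell, among them Casp1 (1.66 ± 0.27) and Gsdme, a pore-forming gasdermin (0.49 ± 0.14), while Nlrp3 (0.02 ± 0.37) did not pass the test. Of 16 acute phase and injury genes tested, 11 rose and none fell, with a median of 1.31. Lcn2, lipocalin 2, rose from 0.339 to 0.523 CPM to 35.9, 10.7, 26.8, 36.0 and 16.1 CPM (5.78 ± 0.39, adjusted p = 2.8e-06, edgeR), and Itih4, an acute phase protein, from 4.29 to 5.65 CPM to 42.6 to 70.7 CPM (3.48 ± 0.15, adjusted p = 6.9e-09, edgeR). Mt2, metallothionein 2, did not pass the test (0.37 ± 0.53).

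Of 38 proliferation genes, 22 rose and none fell, with a median of 0.74, but libraries 1 and 5 carried much of it. Mki67 had 11.0, 9.42, 7.99, 8.71 and 3.46 CPM in Ctrl and 30.7, 11.5, 14.3, 11.1 and 26.3 CPM in Csn8AKO (1.22 ± 0.38, adjusted p = 0.0333, edgeR). Every Csn8AKO library stood above every Ctrl library, 3 of them by little. Without libraries 1 and 5, 6 of 38 genes rose, the median was 0.37 and Mki67 did not pass the test (0.60, adjusted p = 0.17, edgeR). Plk1, a mitotic kinase, rose in both fits (1.83 ± 0.25 in all, 1.65 without these libraries).

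**Figure D5:**
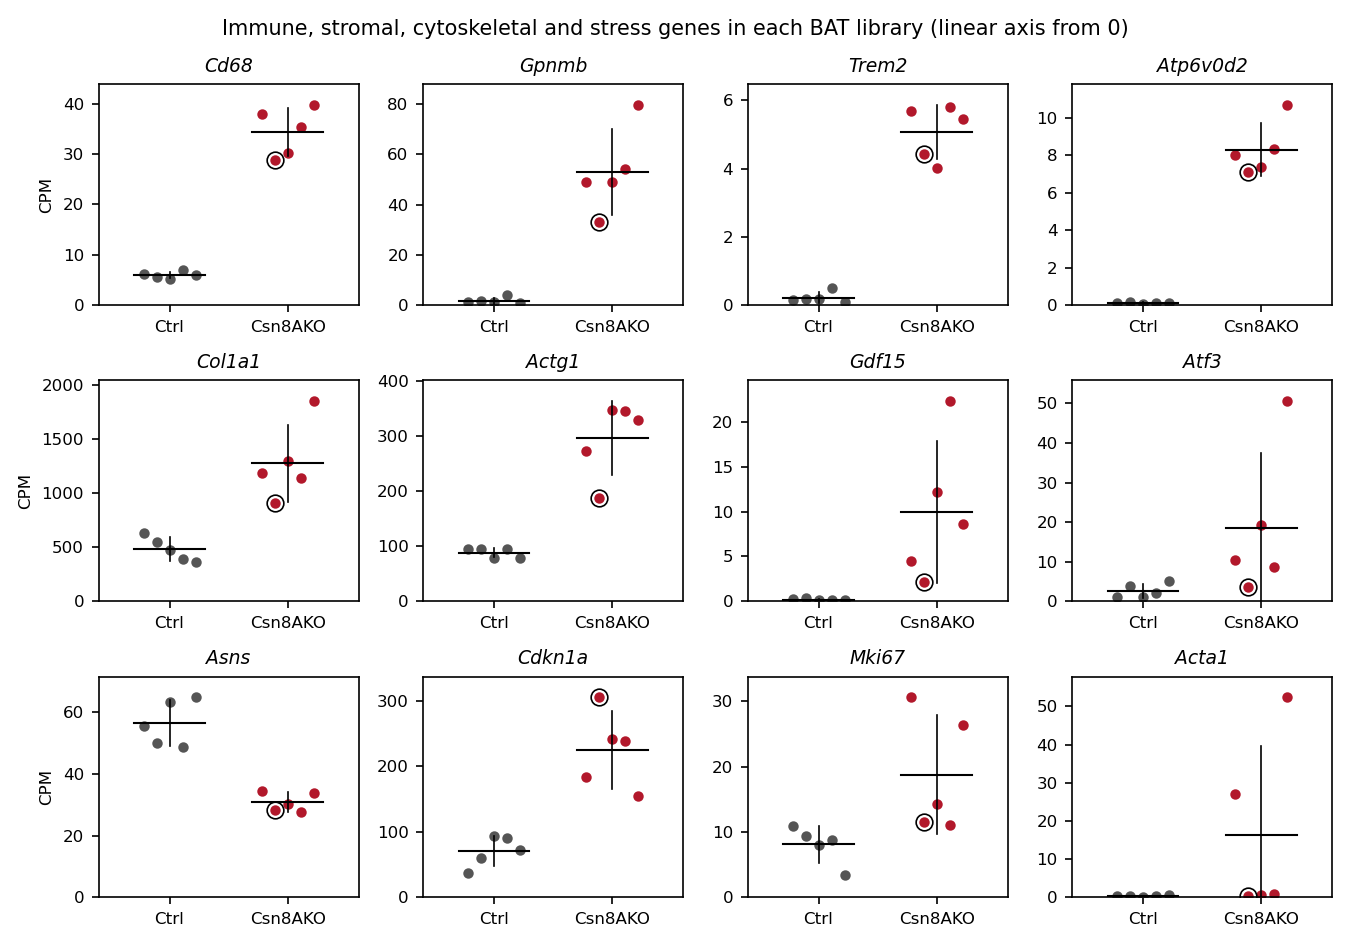
CPM of 12 immune, stromal, cytoskeletal and stress genes in each library (1 panel per gene, linear axis from 0), with 5 Ctrl points in grey and 5 Csn8AKO points in red, each group in the order of its replicate numbers. Horizontal lines are means, vertical lines ± 1 SD, and Csn8AKO library 2 is ringed. The groups are far apart for Cd68, Gpnmb, Trem2 and Atp6v0d2, Asns is lower in all 5 Csn8AKO libraries, and Mki67 and Acta1 are highest in Csn8AKO libraries 1 and 5.

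Among genes with a mean log2 CPM of at least 1 whose groups did not overlap, predicted genes left out, Btc and Erbb4 had the largest decreases. Btc, the growth factor betacellulin, fell from 6.44, 5.98, 6.53, 9.21 and 5.01 CPM to 0.388, 0.473, 0.138, 0.205 and 0.234 CPM (-4.53 ± 0.28, adjusted p = 1.24e-07, edgeR). Erbb4, a receptor of betacellulin and of neuregulins, fell from 20.5, 20.8, 18.8, 12.0 and 8.74 CPM to 0.995, 1.02, 0.412, 1.05 and 0.0668 CPM (-4.43 ± 0.48, adjusted p = 7.61e-05, edgeR). For both, the highest Csn8AKO library was below the lowest Ctrl library by a wide margin. The next 8 largest decreases were those of Vat1l (-4.04), Olig1 (-3.87), Gldn (-3.55), Fer1l6 (-3.48), Il17re, a receptor of the interleukin 17 family (-3.46), Rnf182 (-3.40), Pclo (-3.16) and Txlnb (-3.06). Among the largest increases that no list above describes, Kif1a, a kinesin of axonal transport, rose from 0.234 to 0.905 CPM to 12.5, 51.0, 8.66, 33.5 and 13.3 CPM (5.63 ± 0.66, adjusted p = 0.00023, edgeR), and Plch2, a phospholipase C, and Snhg7os rose by 4.5 and 5.45.

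The authors counted unambiguous reads, and strand use in counting is not given in the sources used here. Cebpa, Mpzl2, Elovl3, Adrb3, Hk1, Abhd5, Aldh6a1, Pdgfra, Col4a1, Fn1, Mmp12, Csf1r, Myh14, Cdkn1a and Ryr1 are among the named genes overlapped by a gene on the opposite strand, so reads in the shared stretches may be missing from their counts.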

How the data were processed

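The 5 Ctrl and 5 Csn8AKO RNA-seq libraries of BAT were used, and the 8 libraries of subcutaneous fat were not used here. Per the study's methods and processing notes, the authors aligned reads of ribosomal-RNA-depleted libraries with STAR 2.7.9a to GRCm38 and deposited raw counts of uniquely aligned, unambiguous reads per Ensembl gene. The deposited TPM values, which the authors scaled by gene length, entered no test. Genes passing a minimum count of 10 (total 15) were scaled by TMM and tested with edgeR 4.0.16 (R 4.3.3), in a step tested on simulated data. A gene could pass this filter through its counts in a single genotype, as Atp6v0d2, Clec4d, Mmp12, Trem2 and Gdf15 did, among others. Counts of members that rose include such genes. Total reads ran from 26658593 to 66719937 per library, so genes at low CPM have the least precise values.

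The members and gene lists were chosen with earlier results of these data known, so lists are described by counts and medians and were not tested as sets. Named genes were the anchors of each list, the most significant gene in each direction per list, and, in each direction, the 10 non-overlapping genes of largest change whose mean log2 CPM reached 1, without predicted genes. Others were named after their values were seen. Alternatives were DESeq2 1.42.0, limma 3.58.1, other scaling, other filters, a replicate block and leaving out libraries. For library measures an exact permutation test was used, two-sided. Results for some genes are not reported here.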

Additional observations from a re-analysis of the deposited data

Results flagged for a closer look

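The groups of 5 libraries were searched for a highest or lowest library far from the others (Dixon's test at the 95% level), which chance flags in about 1 in 20 groups. Of 414 groups searched, 34 held such a library.

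In Csn8AKO library 2 the high values in CPM were Cidea 1920 (next 996), Pnpla2 3640 (next 2760), Ckb 158 (next 66.1), Sdha 2390 (next 1570), Cs 2400 (next 1700), Acadm 1430 (next 890), Aldh6a1 263 (next 215), Suclg2 72.4 (next 60.1), Atp5e 129 (next 102), Pink1 174 (next 139), Tns1 1590 (next 1340), Mt2 5.99 (next 2.13). Its low values were Atp5g1 7.25 (next 25.8), Csf1 9.46 (next 15.9), Myh10 41.4 (next 54.2), Cnn2 10.1 (next 21.2). Its share of reads on ribosomal RNA genes was also far from the group, at 15.1% with the next at 4.1%, and its part in these values was not tested.

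In Csn8AKO library 1 the high values in CPM were Ebf2 86.8 (next 73.3), Lep 39 (next 11.2), Srebf1 734 (next 473), Fads1 55.5 (next 38.9). Csn8AKO library 5 was high for Dgat1 856 (next 535).

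Among Ctrl libraries, library 1 was high for Col5a3 122 (next 93.7), Clec4d 0.155 (next 0.0369), Bbc3 10.6 (next 5.57) and low for Hspa5 206 (next 241). Library 2 was high for Hspa1b 11.4 (next 3.77), library 3 for Chac1 2.4 (next 1.37), library 4 for Gpnmb 3.95 (next 1.76), Trem2 0.517 (next 0.186) and library 5 for Dgat1 349 (next 262), Fads2 14.9 (next 12.5), Vat1l 33.9 (next 22.5). The summed CPM of monocyte, dendritic cell and MHC class II genes was low in library 3, at 197 with the next at 242.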

How the results depend on the processing

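Depth limits the genes at low CPM most. Against the 3585 higher and 3536 lower genes of the TMM fit, scaling by library size alone gave 4183 and 2087 (66.7% of calls higher instead of 50.3%), DESeq2 4038 and 3929, limma voom 4531 and 4525, and the fit without Csn8AKO libraries 1 and 5, chosen after seeing the data, 2560 and 2743. Leaving out 1 library at a time gave 2948 to 4040 higher and 2752 to 4106 lower genes. A filter of 1 CPM left 592 genes lower by at least 2-fold, since fewer genes were tested. The cause of the other changes was not tested.

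Library size alone moved the median log2 fold change of all genes from 0.006 to 0.14, and list medians with it: pan-adipocyte genes 0.05, lipid droplet and lipolysis -0.03, glycolysis -0.05, mitochondrial ribosomal proteins -0.04, peroxisome -0.10, mitochondrial biogenesis, dynamics and import 0.06, collagens 1.09, TGF-beta ligands and response 0.70, lipid-associated macrophage genes 1.73, B cell and plasma cell markers 0.52, chemokines and chemokine receptors 0.87, cytokines 0.56, actin, myosin and actin-binding genes 0.46, intermediate filaments and lamins 0.01, tubulins and microtubule regulators 0.45, integrins and focal adhesion 0.54, integrated stress response 0.44, unfolded protein response 0.31, p53 targets 0.63, NRF2 targets and antioxidant genes 0.14, proteasome subunits 0.08, lysosome and proton pump 0.45, apoptosis and pyroptosis 0.64, acute phase and injury genes 1.46, COP9 signalosome subunits 0.13. The medians of pan-adipocyte genes and of intermediate filaments and lamins, and that of mitochondrial biogenesis, dynamics and import, were below 0 in the TMM fit (-0.09, -0.13 and -0.06).

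With a filter of 1 CPM the medians were lipid-associated macrophage genes 1.43, neutrophil markers -0.12, chemokines and chemokine receptors 0.29, where that of neutrophil markers turned from 0.81, and no lymph node stromal marker was left. With no filter they were white-adipocyte-selective genes 0.46, collagens 0.81, lymph node stromal markers 1.20, cytokines 0.56, intermediate filaments and lamins -0.03, with limma voom skeletal muscle markers 1.46, chemokines and chemokine receptors 0.80, cytokines 0.56, and without Csn8AKO libraries 1 and 5 other matrix genes 0.60, TGF-beta ligands and response 0.30, skeletal muscle markers 0.41, lipid-associated macrophage genes 1.44, lymph node stromal markers 0.78, proliferation 0.37.

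Ratios of mean summed CPM, Csn8AKO to Ctrl, crossed p = 0.05 (exact permutation test, two-sided, unadjusted) without Csn8AKO libraries 1 and 5 for Schwann cell and nerve markers 1.19, skeletal muscle markers 0.682, T and NK cell markers 1.37, B cell and plasma cell markers 1.17, with library size alone for mast cell and eosinophil markers 1.56, lymph node stromal markers 1.36 and with library size less ribosomal RNA reads for pericyte and smooth muscle markers 1.2, mast cell and eosinophil markers 1.56. The ratio of skeletal muscle markers turned from 4.12. With those 2 libraries out, 3 Csn8AKO libraries remain and no p can go below 0.0357.

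Leaving out 1 library at a time, list medians ranged as follows: lipid droplet and lipolysis -0.24 to -0.11, glycolysis -0.24 to -0.11, tricarboxylic acid cycle and pyruvate entry -0.56 to -0.34, mitochondrial biogenesis, dynamics and import -0.17 to -0.04, collagens 0.78 to 1.00, TGF-beta ligands and response 0.40 to 0.69, macrophage markers 1.44 to 1.68, lipid-associated macrophage genes 1.5 to 1.64, neutrophil markers 0.62 to 1.11, B cell and plasma cell markers 0.19 to 0.52, chemokines and chemokine receptors 0.59 to 0.85, cytokines 0.40 to 0.57, integrins and focal adhesion 0.33 to 0.53, NRF2 targets and antioxidant genes -0.08 to 0.07. Ratios of means ranged as follows: total reads 0.613 to 0.785, brown adipocyte thermogenic genes 0.788 to 0.926, pan-adipocyte genes 0.83 to 0.892, pericyte and smooth muscle markers 1.06 to 1.13, B cell and plasma cell markers 1.26 to 1.54, mast cell and eosinophil markers 1.29 to 1.51.

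The replicate numbers did not pair the libraries: same-numbered libraries had correlated deviations of 0.101, -0.0975, -0.0124, -0.0513 and 0.091, and 2 of 5 matched best with their own number. With the number as a replicate block, 3353 genes were higher and 3423 lower, and of the 230 genes named by the rule 6 gained and 5 lost a call.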

Other observations

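Some listed genes were below the filter on low counts and entered no test. Myh4, a fast skeletal myosin, had 0, 1, 4, 1 and 2 reads in Ctrl and 3028, 2, 5, 3 and 2722 reads in Csn8AKO, and Ckm, the muscle creatine kinase, 1, 3, 3, 2 and 12 reads in Ctrl and 492, 0, 6, 12 and 395 reads in Csn8AKO. In both genes Csn8AKO libraries 1 and 5 stood far above the rest.

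Fgf21, a hormone of the integrated stress response, had 3, 11, 6, 7 and 8 reads in Ctrl and 5, 6, 10, 61 and 5 reads in Csn8AKO, with 1 library above the others. Il6, an inflammatory cytokine, had at most 6 reads in any library, and Th, the rate-limiting enzyme of catecholamine synthesis, at most 2.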
